A study of Saccharomyces cerevisiae with 12 samples.

Results

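The first 30 min after rapamycin was added to Sis1-AA budding yeast (Saccharomyces cerevisiae) is described here from 2 libraries, taken at 15 and 30 min, out of 12 polyA RNA-seq libraries in all. They were chosen by their labelled times and compared with both untreated libraries of the study. Of the 5045 listed genes, 4937 averaged 10 or more across the 12 libraries and were tested. Changes were computed as log2(value + 1), so those of genes with few reads are understated.

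Sis1 is an essential J-domain protein, a class of co-chaperone that hands clients to Hsp70 and starts its ATP cycle. The heat shock transcription factor Hsf1 drives chaperone genes in yeast through heat shock elements, which are inverted repeats of GAA, and Hsp70 together with Sis1 is known to hold Hsf1 inactive. In anchor-away strains the protein of interest carries a tag that rapamycin links to an anchor, an abundant protein on its way out of the nucleus, so the nucleus loses the protein while the cell keeps it. The comparison asks which mRNAs move first when nuclear Sis1 is removed this way.

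The early rapamycin libraries came from Sis1-AA cells given 1 µM rapamycin for 15 or 30 min. Later rapamycin libraries were taken at 60, 90 and 120 min, and heat shock libraries at the same 5 times after a move to 39 °C. The untreated libraries were the time 0 samples of both courses, labelled as a control without rapamycin and as a control at 30 °C. All samples carried the strain label Sis1-AA and grew in YPD, a rich medium. Each time had a single library. No library of a strain without the anchor was analysed here, so effects of rapamycin itself and of Sis1 loss cannot be told apart. The labels give no TOR1 or FPR1 genotype. FPR1, which encodes the protein that rapamycin binds and which anchor-away strains usually lack, had 2 reads at 15 min and 1 at 30 min of rapamycin, against 2 and 3 reads in the untreated libraries of the rapamycin and heat shock courses.

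The early rapamycin libraries held 4312120 and 3582357 reads in listed genes, and the untreated ones 4379304 and 2991418. A count of 3 reads, the most that a count of 0 allows, equals 2.74 and 3.40 normalized counts at 15 and 30 min of rapamycin and 2.84 and 4.28 in the untreated libraries, for counting error only. The log2 difference between 30 and 15 min had an SD of 0.26 over genes, and that between the untreated libraries an SD of 0.33, with 40 genes at least 2-fold apart between them. The fit takes the 15 and 30 min libraries as a pair, so its error holds the step between these times and the difference between the untreated cultures. Its p-values describe these libraries, and an exact permutation test of 2 against 2 could not go below p = 0.333 (two-sided).

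Stretches upstream of 8 early genes are shown because they carry 2 of the sequence elements that recur among the first genes to rise. Each is 150 bases long, reads 5′ to 3′ on the gene's strand, and is taken from the far end of the 300 bases before the coding start (RefSeq, assembly R64, the sacCer3 build). Capitals mark matches to the heat shock element, searched as TTCNNGAANNTTC and GAANNTTCNNGAA, in the first 5, and matches to the iron-responsive element, searched as TGCACCC and GGGTGCA, in the last 3. The first stretch lies in the 501-base gap between SIS1 and LST8, which are transcribed away from each other.
LST8, chrXIV:619767-619916, plus strand: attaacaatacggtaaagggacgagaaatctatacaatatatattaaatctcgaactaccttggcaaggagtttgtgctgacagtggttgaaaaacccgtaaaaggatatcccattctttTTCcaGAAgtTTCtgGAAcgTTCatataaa
HSP42, chrIV:806321-806470, plus strand: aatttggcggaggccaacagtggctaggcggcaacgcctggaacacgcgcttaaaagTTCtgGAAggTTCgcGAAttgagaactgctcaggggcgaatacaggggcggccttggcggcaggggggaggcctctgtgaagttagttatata
HSP104, chrXII:88323-88472, plus strand: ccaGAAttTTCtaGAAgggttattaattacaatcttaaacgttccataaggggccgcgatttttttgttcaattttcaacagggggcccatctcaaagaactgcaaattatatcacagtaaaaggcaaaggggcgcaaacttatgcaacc
SSA1, chrI:141582-141731, minus strand: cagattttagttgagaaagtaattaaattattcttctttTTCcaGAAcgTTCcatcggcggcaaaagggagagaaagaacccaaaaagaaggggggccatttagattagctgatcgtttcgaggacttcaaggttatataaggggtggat
STI1, chrXV:380753-380902, plus strand: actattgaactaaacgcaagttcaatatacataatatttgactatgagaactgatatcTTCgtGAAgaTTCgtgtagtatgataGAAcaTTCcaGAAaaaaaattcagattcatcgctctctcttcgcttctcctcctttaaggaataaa
SIT1, chrV:27357-27506, plus strand: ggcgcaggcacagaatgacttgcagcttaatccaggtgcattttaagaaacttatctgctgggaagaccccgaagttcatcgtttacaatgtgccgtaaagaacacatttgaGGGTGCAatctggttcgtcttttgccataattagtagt
FET3, chrXIII:388522-388671, plus strand: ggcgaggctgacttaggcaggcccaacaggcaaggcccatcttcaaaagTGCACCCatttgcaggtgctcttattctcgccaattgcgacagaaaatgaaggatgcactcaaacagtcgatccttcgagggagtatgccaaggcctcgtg
ISU1, chrXVI:297253-297402, plus strand: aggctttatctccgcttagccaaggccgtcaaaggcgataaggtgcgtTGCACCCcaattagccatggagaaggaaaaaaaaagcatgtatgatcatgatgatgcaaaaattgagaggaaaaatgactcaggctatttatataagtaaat

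The heat shock element was found in the 300 bases before the start of 0.864% of 6020 protein-coding genes. It was there in 8 of the 41 genes (19.5%) that stood at least 2-fold above both untreated libraries at 15 min, namely HSP104, HSP42, SSA1, HSP78, STI1, FES1, LST8 and ZPR1. It was there in 5 of the 39 genes that passed 2-fold at 30 min only and in 1 of the 44 that stood 2-fold lower at either time. Of the 23 Hsf1 target genes described below, 10 (43.5%) had it in these 300 bases and 14 (60.9%) within 500. Among the strong risers SSA4, HSP82, CUR1 and MDJ1 had no match within 500 bases. SIS1 and BTN2 had matches within 500 bases but not within 300. In LST8 the capitals form 5 alternating units, read as 3 overlapping matches that begin 180, 175 and 170 bases before its start; the same run lies within 500 bases of SIS1. The iron-responsive element was in 1.33% of all promoters and in 9 of the 41 genes (22.0%), namely ISU1, HSP78, SIT1, FET3, TIS11, CCC2, LSO1, VMR1 and HHY1. The stress response element bound by Msn2 and Msn4 was searched as AGGGG and CCCCT, which can overlap other motifs. It was in 22.2% of all promoters and in 14 of the 41 (34.1%). Neither the Rpn4 element GGTGGCAAA nor the pleiotropic drug response elements TCCGCGGA and TCCGTGGA, searched on both strands, was found in these 300 bases of any of the 41. Within 500 bases the drug response element was in 3 of the 41 (7.32%), namely SPO24, ISU1 and HHY1, beside 1.66% of all promoters, and the Rpn4 element was in none. The heat shock element was then in 24.4% of the 41, beside 1.48% of all, and the iron-responsive element in 26.8%, beside 2.33%. The stress response element was in 56.1% of the 41 within 500 bases, beside 34.0% of all. These matches are letters in a window and were not tested as binding sites.

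Within 15 min, 41 genes stood at least 2-fold above both untreated libraries (0.830% of those tested) and 13 stood 2-fold below both (0.263%). At 30 min the numbers were 74 (1.50%) and 40 (0.810%). Of the higher genes 35 passed 2-fold at both times, 39 at 30 min only, and 6 at 15 min only: TIS11, RCK1, ROX1, MAL31, INO1 and HHY1. Of the lower genes 9 passed at both times, 31 at 30 min only and 4 at 15 min only. The scatter of 15 against 30 min shows most of the strong risers on the 30 min side of the diagonal. In the limma fit 119 genes were called higher (2.41%) and 140 lower (2.84%) at an adjusted p under 0.05. The split turned to 141 higher and 74 lower with libraries scaled to equal totals, and to 127 and 97 with quantile normalization. The number called fell to 64 without the untreated library of the rapamycin course, 154 without its heat shock course counterpart and 120 without the 30 min library, and was 415 without the 15 min library.

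**Figure D1:**
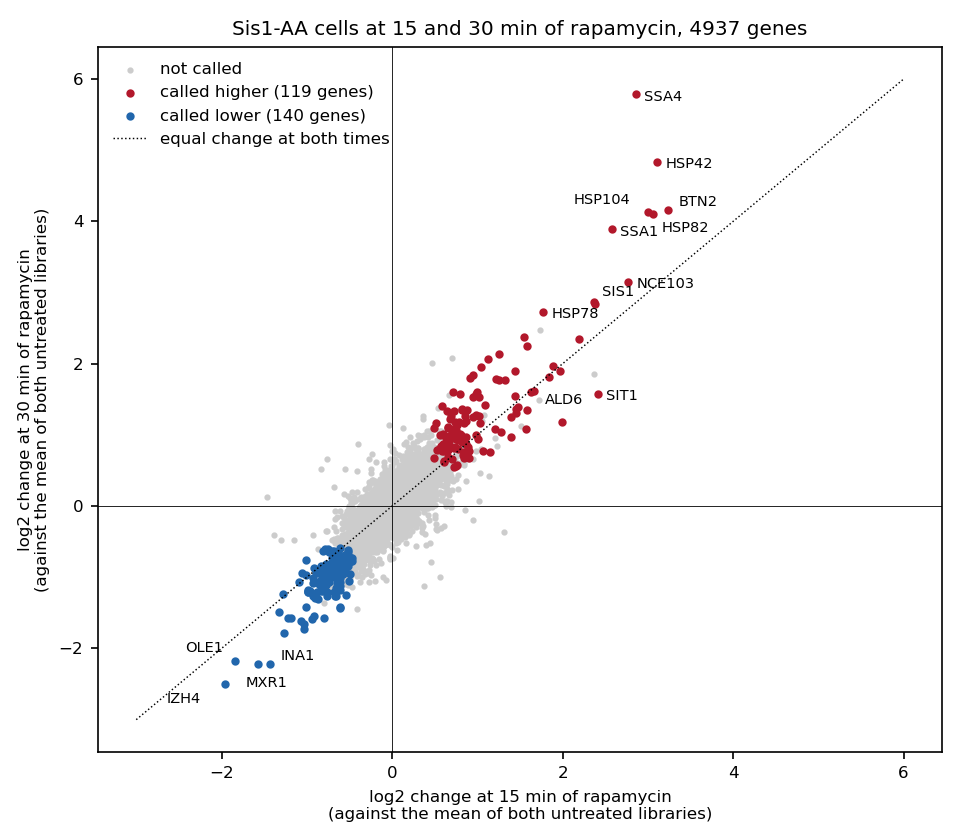
Log2 change of each of 4937 genes at 15 min (horizontal) and 30 min (vertical) of rapamycin against the mean of both untreated libraries, with 119 genes called higher in red and 140 called lower in blue. SSA4 and HSP42 lie far above the line of equal change, NCE103 and SIS1 close to it, and SIT1 below it.

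Hsf1 target genes made up most of the largest early rises. Of 23 tested, 21 were called higher and none lower, with a median log2 change of 1.67 beside -0.03 over all genes. Their median was 1.32 at 15 min and 1.90 at 30 min, and 13 and then 20 of them stood at least 2-fold above both untreated libraries. All 23 had an unadjusted p under 0.05. The number called was 11 without the untreated library of the rapamycin course, 14 without its heat shock course counterpart and 14 with the spread shared over 12 libraries.

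SIS1 itself had 2811 and 3982 normalized counts at 15 and 30 min of rapamycin, against 443 and 670.3 in the untreated libraries of the rapamycin and heat shock courses. Both treated values lay far above both untreated ones, and the rise of 2.62 ± 0.22 (SE, log2) was called (limma adjusted p 0.000325). Anchoring removes Sis1 protein, of which these libraries hold no measure, so the mRNA is no check of the depletion. LST8, a subunit of the TOR complexes that shares the intergenic gap, had 1048 and 2020 counts against 490.4 and 472.1, a rise of 1.60 ± 0.26 (limma adjusted p 0.0101) that lost its call when either untreated library was left out. It was chosen after its values were seen.

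Among the Hsp70 genes, SSA4 showed the widest step between the early times. It had 2498 and 19008 counts at 15 and 30 min, against 332.3 and 355.1 in the untreated libraries, which is 7.25-fold and then 55.2-fold their mean. The rise of 4.32 ± 0.69 was called (limma adjusted p 0.00967), but not when either untreated library was left out. SSA1 had 3869 and 9580 counts, against 627.6 and 666.0 untreated. SSA2, its constitutive and near-identical partner, had 8826 and 12157, against 5014 and 6269. The heat-inducible gene thus stood 5.98-fold and 14.8-fold above the untreated mean, and the constitutive gene 1.57-fold and 2.17-fold; reads of the pair can be split or shared by the counting.

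The sequestration and disaggregation genes rose early and together. BTN2, a sorting factor for misfolded proteins, had 2220 and 4199 counts at 15 and 30 min, against 253.7 and 215.3 untreated (log2 change 3.70 ± 0.26, limma adjusted p 0.000114). HSP42, a small heat shock protein that gathers misfolded proteins, had 622.1 and 2060 counts, against 86.15 and 58.47. Its 28.6-fold level at 30 min was second to SSA4 among the named genes. HSP104, the hexameric disaggregase, reached 18428 counts at 30 min after 8472 at 15 min, against 1101 and 1010 untreated. CUR1, the paralogue of BTN2, had 528 and 590.0 counts, against 115.5 and 114.1, so most of its rise was present at 15 min.

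Within the Hsp90 group all 6 genes were called higher, with a median of 1.33. HSP82, the inducible Hsp90, had 3445 and 7111 counts, against 424.1 and 399.3 untreated (log2 change 3.58 ± 0.28, limma adjusted p 0.00023). HSC82, the constitutive copy, had 17462 and 23709, against 11262 and 9666, a change of 0.96 with a sequence close to that of HSP82. STI1, which bridges Hsp70 and Hsp90, had 2180 and 3464 counts, against 737.5 and 715.9. The other co-chaperones AHA1, CPR6 and HCH1 rose by 1.30, 1.36 and 0.84.

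The remaining J-domain, exchange factor and mitochondrial chaperone genes had changes between 0.69 (SSE1, not called) and 2.25 (HSP78). MDJ1, a mitochondrial J-domain protein, had 880.6 and 1213 counts, against 321.9 and 326.6 untreated. HSP78, the mitochondrial disaggregase, had 1354 and 2619, against 449.7 and 348. YDJ1, the other main cytosolic J-domain protein, rose by 0.95, and the chaperonin genes HSP60 and HSP10 by 1.09 and 0.80. FES1, a nucleotide exchange factor of Hsp70, rose by 1.55, and MBF1, a transcriptional coactivator, by 1.69. SSE1, another exchange factor, and UBI4 (0.59), a polyubiquitin gene, were the 2 members not called, with limma adjusted p of 0.0802 and 0.161.

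**Figure D2:**
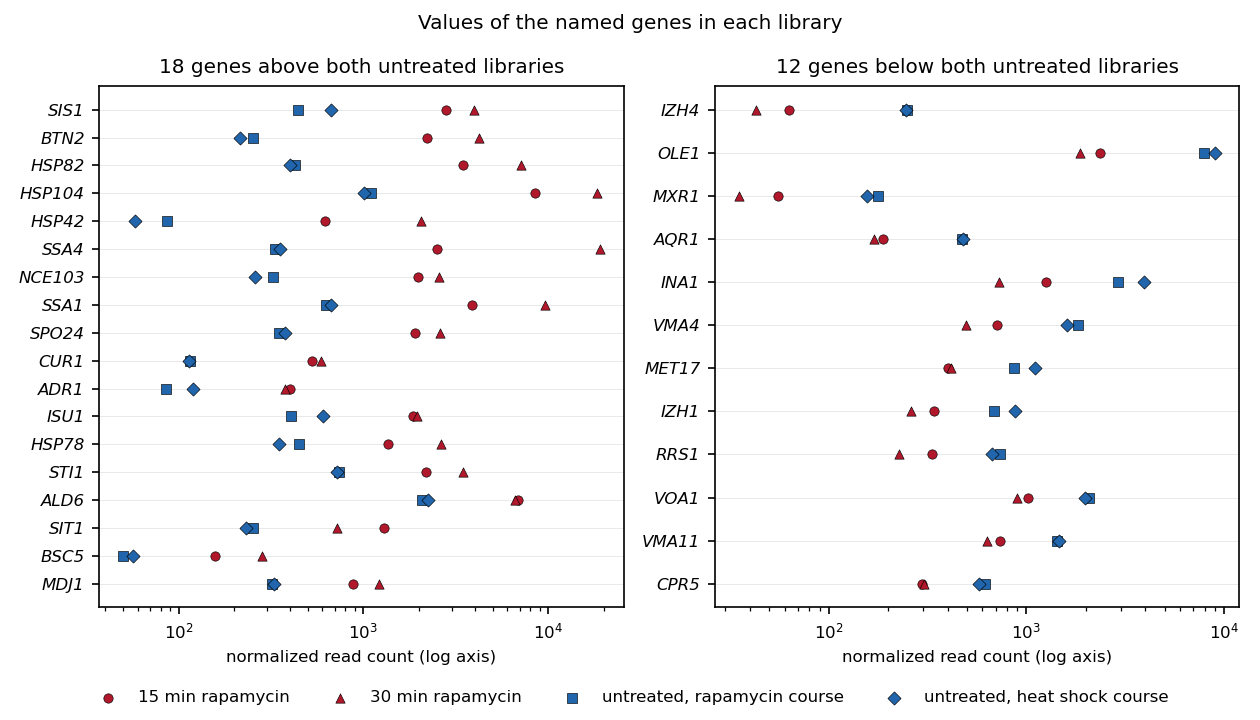
Normalized read counts (log axis) of the 18 genes with the largest gap above both untreated libraries and the 12 with the largest gap below them, with 15 min (circles) and 30 min (triangles) of rapamycin in red and the untreated libraries of the rapamycin (squares) and heat shock (diamonds) courses in blue. The red and blue points do not overlap for any of the genes, by the rule that chose them.

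The other cytosolic chaperone genes did not follow the Hsf1 targets. Of 28, 1 was called higher and 3 lower, beside 2.41% and 2.84% of all genes, with a median of -0.25. APJ1, another J-domain protein, had 286.8 and 308 counts, against 103.2 and 107 untreated (1.49 ± 0.16, limma adjusted p 0.00123). EGD2, a subunit of the nascent chain complex at the ribosome, had 1904 and 1239 counts, against 4439 and 3438. SNL1 and PPT1 fell by 0.85 and 0.58. Among 15 chaperonin and prefoldin genes the prefoldin genes YKE2 (-0.90) and PAC10 (-0.82) were called lower and no other was called. Over all genes 2.84% were called lower.

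Iron genes formed the other large group of early risers. The iron regulon, which Aft1 and Aft2 drive when iron-sulfur cluster supply is low, had 20 of 28 members called higher and none lower, with a median of 0.79. Its median was 0.80 at 15 min and 0.81 at 30 min, whereas that of the Hsf1 targets was lower at 15 than at 30 min. The number called was 8 without the untreated library of the rapamycin course, 13 without its heat shock course counterpart, 8 with a required log2 change of 1 and 13 without the mean-variance trend. The iron-responsive element, added to the search after the data were seen, was in 14 of the 28 promoters.

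SIT1, a siderophore transporter, had 1291 counts at 15 min and 722.5 at 30 min, against 253.7 and 231.0 untreated (1.99 ± 0.24, limma adjusted p 0.00218). It was thus highest at 15 min. ISU1, the scaffold on which iron-sulfur clusters are built, had 1843 and 1940 counts, against 406.1 and 606.1. FET3, the multicopper ferroxidase of high-affinity iron uptake, had 4956 and 4247, against 1487 and 1854. CCC2, which supplies copper to Fet3, rose by 1.44, the ferric reductase gene FRE4 by 1.41 and the haem oxygenase gene HMX1 by 1.52. FTR1, the permease partner of Fet3, had a change of 0.45 and was not called (limma adjusted p 0.156). The cell wall mannoproteins FIT1, FIT2 and FIT3, with changes of 0.29, 0.82 and 0.18, were not called either.

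Some of the earliest risers belonged to neither group. NCE103, the carbonic anhydrase gene, had 1974 and 2578 counts, against 322.8 and 259.6 untreated (2.96 ± 0.18, limma adjusted p 0.000114). SPO24, which encodes a small protein linked to sporulation, had 1894 and 2612 counts, against 350.3 and 376.5. ALD6, the main cytosolic aldehyde dehydrogenase, had 6859 and 6605, against 2078 and 2245, and so stood at its full early level by 15 min. ADR1, a transcription factor of alternative carbon sources, had 400.1 and 378.3, against 85.20 and 119.8. BSC5 had 158 and 283.1 counts, against 50.17 and 57.05, and lost its call without the untreated library of the rapamycin course.

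**Figure D3:**
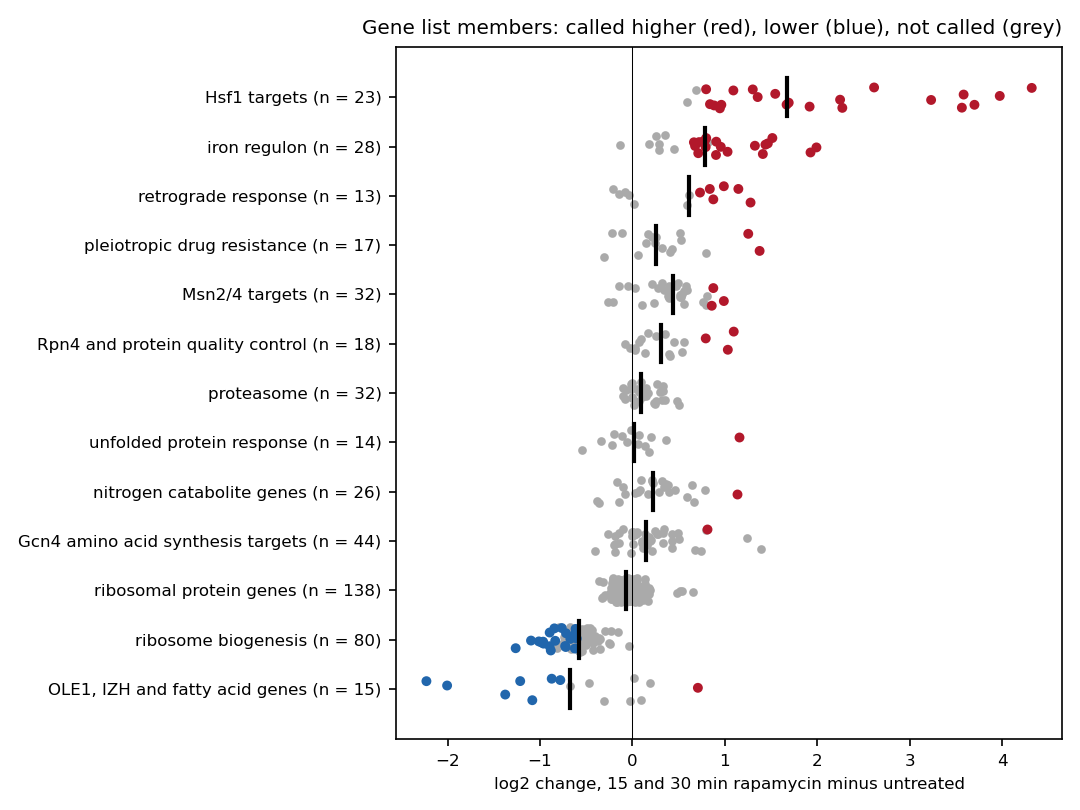
Log2 change of early rapamycin over untreated for the members of 13 gene lists (points), with the list median as a bar. Red points are called higher, blue points called lower and grey points not called; the Hsf1 targets and the iron regulon lie to the right of 0, ribosome biogenesis and the OLE1 and IZH group to the left.

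Retrograde genes, which respond to mitochondrial dysfunction and to TOR inhibition, had 6 of 13 members called higher. PYC1, a pyruvate carboxylase, had 2097 and 2998 counts, against 1011 and 1055 untreated. CIT2, the peroxisomal citrate synthase and classic marker of the pathway, had 3198 and 2921, against 1438 and 1323. DLD3, CIT1, IDH2 and IDH1 rose by 0.99, 0.84, 0.88 and 0.73. IDH1 is transcribed away from NCE103 across a shared gap of 811 bases. The number called was 2 without the untreated library of the rapamycin course and 2 with a required log2 change of 1.

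Genes of membrane lipid desaturation and the PAQR-type IZH family fell early. OLE1, the only fatty acid desaturase gene of yeast, had 2361 and 1874 counts, against 7891 and 9043 untreated (-2.00 ± 0.16, limma adjusted p 0.000253). IZH4 had 63.03 and 43.03 counts, against 249 and 246.7 (-2.23 ± 0.21, limma adjusted p 0.000821). IZH1 fell by 1.38 and IZH2 by 1.08, while IZH3 had a change of -0.03. FAA4, an acyl-CoA synthetase, fell by 1.21, the fatty acid synthase gene FAS1 by 0.87 and MGA2, an activator of OLE1, by 0.78. In total 7 of the 15 genes of this list were called lower, and FAA1 was called higher (0.71).

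Some genes of the vacuolar proton pump were among the early falls, in a list of 22 genes put together after the data were seen. VMA4 had 711.6 and 496 counts, against 1834 and 1602 untreated (-1.53 ± 0.18, limma adjusted p 0.0022). VMA11 and VMA3, which encode proteolipid subunits of the membrane ring, fell by 1.08 and 0.91, and VOA1, an assembly factor, by 1.08. These 4 were the only members called, beside 2.84% of all genes called lower, and the list's median was -0.20. VMA4, VMA11 and VOA1 were also chosen by their gap below the untreated libraries, so their calls are no separate support.

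Sulfur metabolism, in a list also added after the data were seen, had 4 of 30 genes called lower and none higher, beside 2.84% of all genes called lower. The list as a whole moved little, with a median of -0.08 and 14 of the 30 changes above 0. MXR1, a methionine sulfoxide reductase, had 55.72 and 35.11 counts, against 178 and 156.9 untreated. MET17, which makes homocysteine from sulfide, had 402.8 and 415.6, against 870.9 and 1108; it overlaps YLR302C in R64 and its strand of counting is not given. MET6, the methionine synthase, fell by 1.00 and MMP1, an S-methylmethionine permease, by 0.84.

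Other named falls came from separate functions. AQR1, a plasma membrane exporter, had 189.1 and 169.9 counts, against 475.2 and 479.2 untreated. INA1 had 1256 and 730.5, against 2912 and 3952. CPR5, a prolyl isomerase of the endoplasmic reticulum, had 295.1 and 304.6, against 616.3 and 577.6.

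Ribosome biogenesis genes, which TOR signalling sustains, had 21 of 80 members called lower and none higher, with a median of -0.58. Their median was -0.44 at 15 min and -0.71 at 30 min. RRS1, needed to assemble the large subunit, had 334.3 and 227.6 counts, against 735.6 and 670.3 untreated. DBP2, an RNA helicase, fell by 1.26, RLP24 by 1.10, DHR2 by 1.01 and NOP15 by 0.98. All 80 changes lay below 0, but the number called was 6 with equal totals, 10 with quantile normalization, 11 in edgeR, 32 in DESeq2, 3 with the shared spread, 2 without the mean-variance trend and 70 with a straight line in log2(time). It was 52 without the 15 min library, 4 without the 30 min library, 9 without the untreated heat shock course library and 0 without its rapamycin course counterpart. Of 138 ribosomal protein genes none was called by limma, with 8 at an unadjusted p under 0.05, 1 called in edgeR and 2 in DESeq2; their median of -0.06 turned to 0.01 with equal totals or quantile normalization.

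Other stress pathways, in lists of 14 to 32 genes, held 0 to 3 called genes each at 15 and 30 min. In each list here but the proteasome genes the share called was above the 2.41% of all genes called higher, though on few genes. Of 32 Msn2/4 targets, TSL1 (0.99), PNC1 (0.88) and HXK1 (0.86) were called higher, and all 3 lost their calls when either untreated library was left out. In that list 28 of 32 changes lay above 0, with a median of 0.44 and 13 at an unadjusted p under 0.05. Of 14 unfolded protein response genes only KAR2, the Hsp70 of the endoplasmic reticulum, was called, with 6564 and 12098 counts, against 4032 and 3962 untreated. RPN4, the proteasome gene activator, had 655 and 805.2 counts, against 327.6 and 350.8 (1.10 ± 0.16, limma adjusted p 0.0056), with TMC1 (1.03) and HUL5 (0.79) also called from a list of 18. None of 32 proteasome genes was called by limma, edgeR or DESeq2, with 2 at an unadjusted p under 0.05 and a median of 0.10. SNQ2 (1.38) and TPO4 (1.25) were called higher among 17 pleiotropic drug resistance genes. The unadjusted p was under 0.05 for 3 of 14 unfolded protein response genes, 6 of the list of 18 and 7 of the 17 drug resistance genes.

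Single genes were called in lists tied to nutrient signalling, about the share of all genes called higher (2.41%) in the 2 lists named first. PUT4, the proline permease, was the 1 called of 26 nitrogen catabolite genes, with 505.2 and 618.3 counts, against 191.2 and 339.4 untreated. ATR1 (0.81) was the 1 called of 44 Gcn4 targets, and AHP1 (1.19), a thiol peroxidase, the 1 called of 20 oxidative stress genes. The unadjusted p was under 0.05 for 10 of the 26 nitrogen catabolite genes and 14 of the 44 Gcn4 targets, of which DESeq2 called 4 and 5 higher. No cyclin, histone or reference gene was called by limma, with 2, 2 and 1 at an unadjusted p under 0.05 of 16, 10 and 10 tested. When either untreated library was left out, KAR2, TMC1, HUL5, ATR1, AHP1, YKE2, PAC10, IDH2, DBP2, DHR2, YDJ1, HSC82, HCH1, HSP10, CPR6 and MBF1 lost their calls. Without that of the rapamycin course alone RPN4, PUT4, EGD2, SNL1, PYC1, SSA2, AHA1, HSP60, RLP24 and NOP15 did.

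Later rapamycin libraries differed from the early ones in 1009 genes, 367 higher (7.43%) and 642 lower (13.0%). Both sets share the early libraries with the comparison above, so the members are given side by side. Genes called early were picked by their values in these libraries, so the counts of their later moves are not independent of that choice. Of the 119 genes called higher early, 14 were higher still later and 28 were lower than early. Of the 140 called lower early, 69 were lower still and 4 were higher than early. No gene was called in this later comparison by limma when the 15 min library was left out, with 1082 at an unadjusted p under 0.05; edgeR called 1025 and DESeq2 900 with all libraries. Without the 90 min or the 120 min library limma called 254 and 555.

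Part of the iron and retrograde genes came down after the early times. In the later comparison 10 of 28 iron genes and 5 of 13 retrograde genes were called lower, against none of 23 Hsf1 targets. In the other direction 3 of 23 Hsf1 targets, SSA1 among them (1.05), and 1 of 28 iron genes were called higher later than early. ALD6 had 3705, 3034 and 2945 counts at 60, 90 and 120 min, NCE103 had 1346, 1094 and 1084, and ISU1 had 1058, 917.6 and 790.2. SIT1 was near 410 counts at all 3 later times (405.3, 413.2 and 411.1), which is above both untreated libraries. HSP82, by contrast, held 7178, 6336 and 6203 counts, and its difference from the early libraries was not called. In other lists 11 of 14 unfolded protein response genes and 18 of 32 Msn2/4 targets were called higher later than early, and 79 of 80 ribosome biogenesis genes lower.

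**Figure D4:**
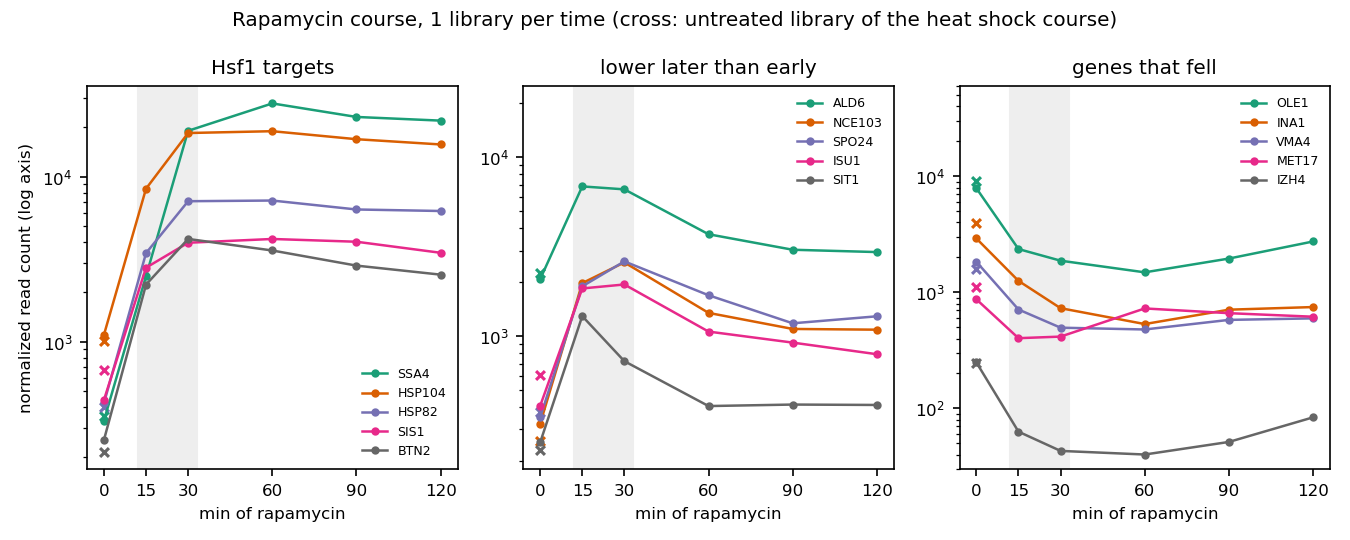
Normalized read counts (log axis) of 15 genes over the rapamycin course, with 0 min as the untreated library of that course, a cross for the untreated heat shock course library, and the early times shaded. Of the Hsf1 targets (left), HSP104, HSP82 and SIS1 stay near their 30 min level. SSA4 is higher from 60 min, and BTN2 comes down from 4199 counts at 30 min to 2550 at 120 min. ALD6, NCE103, SPO24, ISU1 and SIT1 (centre) come down after 30 min. On the right 4 of the 5 genes that fell stay low, with MET17 higher from 60 min.

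Set beside heat shock at the same times, early rapamycin libraries differed in 2898 genes, 1536 higher (31.1%) and 1362 lower (27.6%). The total was 1805 without the 15 min and 1887 without the 30 min rapamycin library. Of 23 Hsf1 targets 10 were called lower with rapamycin than with heat and none higher. HSP82 had 3445 and 7111 counts with rapamycin, against 30772 and 14541 with heat, and HSP42 had 622.1 and 2060, against 14559 and 5676. BTN2 had 2220 and 4199 with rapamycin, against 11449 and 1572 with heat, so its order reversed between the times and its difference of -0.48 was not called. SIS1 reversed likewise, with 2811 and 3982 counts, against 7824 and 2940 with heat. CUR1, FES1, MBF1, HSC82 and YDJ1 were also lower with rapamycin at 15 min and higher at 30 min. HSP104, SSA1 and SSA4 were lower with rapamycin at both times, as HSP82 and HSP42 were. Among these only HSP82 and HSP42 were called. SIT1 (1.75) and OLE1 (1.64) were called higher with rapamycin. Of 28 iron genes 7 were called higher and 5 lower with rapamycin than with heat, with a median of -0.03. OLE1 fell in both, to 2361 and 1874 counts with rapamycin and 761.6 and 593.9 with heat, against 7891 and 9043 untreated. All 32 Msn2/4 targets were called lower with rapamycin than with heat, and 136 of 138 ribosomal protein genes and all 80 ribosome biogenesis genes higher.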

How the data were processed

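The labels' protocols give a phenol chloroform RNA preparation and NEBNext Ultra libraries. Bowtie, HTSeq and the sacCer3 build are named in the submitters' processing notes; versions, annotation, strand use and the normalization method are not given in the sources used here. The authors deposited 1 table of a signal described in its header as normalized gene counts, for 5045 genes and 12 libraries. Within each library 100.0% of values were whole multiples of 1 step within 0.05 read, and reads recovered this way (2991418 to 4379304 per library) were used for edgeR and DESeq2.

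Values were compared as log2(value + 1) for genes with a mean of at least 10 (limma 3.58.1 in R 4.3.3, eBayes with a mean-variance trend; edgeR 4.0.16 and DESeq2 1.42.0 as alternatives), and a gene is called where its p, adjusted by Benjamini-Hochberg over all genes, is under 0.05. SE comes from that fit. The main comparison had 2 residual and 7.46 prior degrees of freedom. The fits were tested on simulated data. Named genes are SIS1 and, with a mean of at least 50, the 18 and 12 genes with the largest gap above and below both untreated libraries, plus up to 4 list members with the largest change; all 23 Hsf1 targets and the called members of other lists are also given. MDJ1 and BSC5 were the last named risers (gaps 1.43 and 1.45 on the log2 scale), with APJ1 and MPC3 just outside (1.42 and 1.35). The members and lists were chosen with earlier results of these data known. Of the systematic names, 5023 were found in R64 and 22 were not. Counts of close paralogues, such as SSA1 with SSA2, HSP82 with HSC82 and the ribosomal protein pairs, are uncertain. The labels do not say that libraries came from separate cultures.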

Additional observations from a re-analysis of the deposited data

Results flagged for a closer look

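In 10 of the 30 named genes the later rapamycin libraries (60 to 120 min) differed from the early ones (15 and 30 min) in the limma test of that difference. Over all genes tested, that test called 7.43% higher and 13.0% lower. The named genes were chosen by their values in the 15 and 30 min libraries, which the test uses again, so this count is not independent of the choice. The later level was lower than the early one for SIT1 (-1.23, log2), ALD6 (-1.07), ISU1 (-1.05), NCE103 (-0.95), SPO24 (-0.70), IZH1 (-0.58) and VOA1 (-0.50). It was higher for SSA1 (1.05), BSC5 (0.71) and MET17 (0.70). The cause was not tested, and with the 15 min library left out limma called no gene in this comparison (1082 at an unadjusted p under 0.05).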

How the results depend on the processing

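In the early comparison the 30 named genes, the 23 Hsf1 targets and the list members with the largest changes kept their sign under the 15 alternatives run. Sign was not compared for other genes or in the other comparisons. Of the 30 named genes, 24 were called under every alternative but that with no filter on low values. They were chosen by their gap between the same early and untreated libraries, so these calls are no separate support. Without the filter, genes with no read in any library enter the fit and 1 gene was called in the early and 1 in the later comparison; the cause was not tested further. A required log2 change of 1 left 88 early, 127 later and 1843 heat comparison calls, by its construction. The early count was 121 without the mean-variance trend and 783 with a straight line in log2(time). The later count was 409 with the spread shared over 12 libraries. Leaving out each library gave 64 to 415 early, 0 to 1390 later and 1805 to 3307 heat comparison calls, where a lone library is assumed to vary like the other group. In the early comparison edgeR called 238 genes (221 shared) and DESeq2 300 (242 shared). Of called genes 45.9% were higher in the early comparison, 65.6% with equal totals and 56.7% with quantile normalization; in the later comparison 36.4%, 51.0% and 47.3%. Calls were lost for SSA4 without either untreated library, for BSC5, MXR1 and RRS1 without the untreated library of the rapamycin course, for MET17 and RRS1 with the shared spread, and for CPR5 with the required change. With time as a replicate block, an alternative chosen after seeing the data, the heat comparison called 2526 genes (2509 shared with 2898), 8 of 23 Hsf1 targets lower and BTN2 still not; the 15 to 30 min steps of both courses correlated at -0.24 over genes. For the other comparisons no paired analysis was possible because the groups share no labelled time or replicate. A few reads per library limit genes near the minimum mean.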

Other observations

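Divergent neighbours of the named risers gave mixed values. Of the 5 named risers whose neighbour was tested, LST8 beside SIS1 (1.60), IDH1 beside NCE103 (0.73) and GIP3 beside ISU1 (0.69) were called higher in early rapamycin, with limma adjusted p of 0.0101, 0.0277 and 0.0226. EFB1 beside SSA1 (-0.01) and YAR1 beside HSP82 (0.15) were not called. The neighbours were looked at after the data were seen, and shared control of a gap was not tested.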
